A study of Rattus norvegicus with 6 samples.

Results

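The genes that make, break and carry out the cyclic AMP signal were read on 6 one-colour microarrays of rat heart, 3 of an AACO group and 3 of a control group. Members were taken by name, as every gene with a non-control probe called Adcy (adenylyl cyclases), Pde (phosphodiesterases), Prkac or Prkar (the catalytic and regulatory subunits of protein kinase A, PKA), Pkia, Pkib or Pkig (PKA inhibitor peptides) or Akap (A-kinase anchoring proteins), each followed where needed by a number or letter. The name rule took 62 genes with 80 probes, of 26316 gene names on the array, and used no measured value. Each gene was represented by its brightest probe, and its other probes were read as a check. Of the 62 members, 47 were tested, and the other 15 lay above background on too few arrays.

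The AACO group had a daily solution of the Chinese medicine formula AACO, an abbreviation that the labels leave unexplained, at 0.386 µg/g for 8 weeks. The control group had the same amount of double-distilled water for 8 weeks. Animals of both groups were killed 24 h after the last dose, and the tissue of all 6 samples is given as whole heart. According to the series text both groups had undergone TAC, which in work on heart failure normally stands for transverse aortic constriction, and no animals without it are described. It calls them mice and speaks of different donors, whereas the sample labels name Rattus norvegicus and the arrays carry rat probes. The labels give no strain, sex or age, and they do not say whether each sample was 1 animal, so p-values reflect only the variation among these 6 samples.

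Adenylyl cyclases turn ATP into cyclic AMP when receptors activate them through stimulatory G proteins, and phosphodiesterases break the messenger down. Cyclic AMP frees the catalytic subunits of PKA from the regulatory ones, anchoring proteins hold the kinase close to its substrates, and small inhibitor peptides bind and silence the free catalytic subunit. In heart muscle this pathway carries the effect of adrenaline and noradrenaline on the rate and force of the beat, and its response is known to be blunted in heart failure.

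Of the 47 tested members, 3 rose and 3 fell with AACO at a limma adjusted p under 0.05. Pkib, Pde4a and Pde4d rose, and Pde10a, Akap12 and Akap2 fell. These 6 genes were 12.8% of the members tested, beside 11.2% of all 17536 genes tested (1110, or 6.33%, higher and 848, or 4.84%, lower with AACO), so the share of members that differed was near that of all genes. The median log2 fold change (AACO minus control) was 0.20 over the 47 members and 0.04 over all genes. Of the members, 31 had a value above 0 and 16 a value below 0, and 55.5% of all genes had a value above 0. Groups did not overlap for 24 members, which is 51.1% of the members tested, beside 37.4% of all genes. The unadjusted p was under 0.05 by limma for 20 members, and for 30.8% of all genes. The samples are tissue labelled as whole heart, in which fewer cells of a type and less RNA per cell cannot be told apart.

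The levels below are log2 of a probe's signal less the 75th percentile on its array, so a value of 0 is the signal of that percentile and 1 unit is a doubling. They can be compared between arrays for 1 probe and not between probes. Between 70.9% and 72.4% of spots were well above background on the AACO arrays, against 66.0% to 68.7% on the control arrays, and no spot was saturated. With 3 arrays a group, the number of arrays limits the precision.

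The 3 AACO arrays lay on 1 slide with 1 scan day and the 3 control arrays on another slide with another scan day, so slide, scan day and treatment cannot be told apart in any value given here. Markers of several other cell types also moved with the groups. Myl7 and Sln are 2 of 6 atrial muscle markers, and their mean log2 level was 3.11, 5.08 and -0.73 on the AACO arrays and -2.0, -1.66 and -1.05 on the control arrays. Over all 6 atrial markers the summed signal, in units of the 75th percentile, overlapped at 166 to 259 with AACO and 154 to 235 in controls. None of the 5 tested was called, with Nppa differing by -1.01 and Myl4 by 0.0024. The summed signal of 12 macrophage markers was 14.9 to 16.4 with AACO and 25.0 to 37.3 in controls, and 9 of the 12 fell. The sum over 8 markers of smooth muscle and pericytes was 26.1 to 31.8 with AACO and 20.1 to 22.9 in controls, and 1 of the 8 rose. The sum over 8 endothelial markers was 25.8 to 27.0 with AACO and 29.0 to 31.4 in controls, with none of the 8 called. The sum over 9 markers of Schwann cells and nerve was 4.98, 5.50 and 1.65 with AACO and 0.78 to 1.59 in controls, and 1 of the 7 tested rose. The lists for macrophages, smooth muscle, endothelium and nerve each had every marker above background on at least 1 array. The sum over 5 neutrophil markers was 0.34 to 0.89 with AACO and 1.1 to 1.63 in controls. Of those 5, 3 were tested and 1 fell, and Csf3r was above background on no array. The sum over 6 photoreceptor markers, which include members of the PDE6 family, was 0.083 to 0.11 with AACO and 0.17 to 0.19 in controls. Of those 6, 2 fell, and 3 were above background on no array. All 10 markers of ventricular and general heart muscle were tested, with sums of 1411 to 1612 with AACO and 1246 to 1812 in controls, and none was called. The part of these cell types in the results below was not tested.

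**Figure D1:**
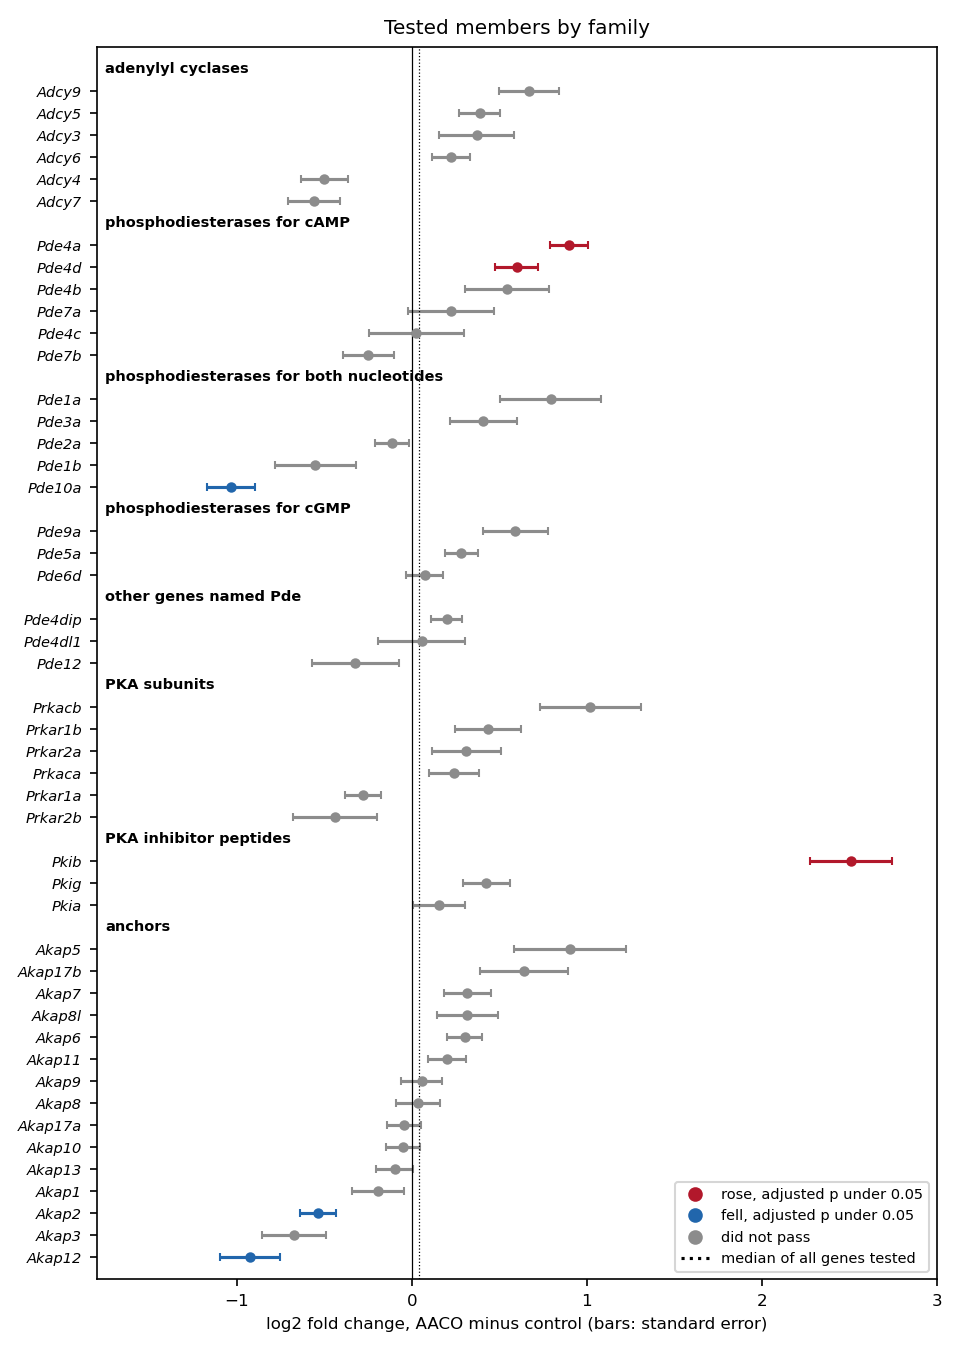
Log2 fold change (AACO minus control, horizontal axis) of each of the 47 tested members, grouped by family, with its standard error as a bar. Red points rose and blue points fell at an adjusted p under 0.05, grey points did not pass, and the dotted line is the median of all genes tested (0.04). Pkib stands at 2.51, and the other 46 members lie between -1.03 and 1.02.

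The cyclases come first in the pathway, and none of the 6 tested of 10 passed the test. The groups did not overlap for 5 of the 6, beside 37.4% of all genes tested, and 6 genes are too few to compare shares. Adcy5, with Adcy6 a main cyclase of heart muscle, had levels of 1.94, 2.11 and 2.01 on the AACO arrays and 1.67, 1.77 and 1.46 on the control arrays. The difference was 0.39 ± 0.12 (log2 ± SE, n = 3 each, limma adjusted p = 0.0822). Adcy6 stood at -3.91, -4.06 and -4.12 with AACO and at -4.28, -4.12 and -4.35 in controls, a difference of 0.22 ± 0.11 (limma adjusted p = 0.222). For both genes each AACO array lay above each control array, and the margin for Adcy6 was small beside the spread in either group.

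Adcy9, a widely expressed cyclase that responds weakly to forskolin, had levels of -1.02, -1.26 and -1.63 with AACO and -2.07, -1.86 and -2.0 in controls. Its difference of 0.67 ± 0.17 (n = 3 each, limma adjusted p = 0.055) was the one nearest to the threshold among the cyclases. Adcy4 and Adcy7 lay the other way.

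Adcy4, a cyclase that G protein beta-gamma subunits stimulate, had levels of -2.36, -2.57 and -2.51 with AACO and -2.19, -1.98 and -1.78 in controls, a difference of -0.50 ± 0.14 (limma adjusted p = 0.0638). Adcy7, a cyclase known best from blood cells and brain, had levels of -5.23, -5.28 and -5.62 with AACO and -4.85, -4.97 and -4.63 in controls. The difference was -0.56 ± 0.15 (limma adjusted p = 0.0624), but a second Adcy7 probe of similar signal gave 0.19 ± 0.23, so the direction for Adcy7 is uncertain. Adcy4, Adcy5, Adcy7 and Adcy9 each passed the threshold in some of the alternative settings, but not with the settings used here. Adcy3 (0.85) and Adcy6 (0.70) passed without scaling, where nearly all calls were higher, and turned to -0.28 and -0.017 with normexp background correction. Adcy2, above background on no array and so not tested here, was called at -1.44 without a filter on dim probes. The array file places the Adcy2 probe on chromosome 17 of rat build rn4, and RefSeq places the gene on chromosome 1 of GRCr8. Which copy this probe measures is thus uncertain. Adcy3, the cyclase of olfactory neurons, was above background on 3 AACO arrays and 1 control array, and its values overlapped at -5.17, -5.65 and -5.78 with AACO and -5.82, -5.67 and -6.23 in controls. Adcy1, Adcy2, Adcy8 and Adcy10 were not tested.

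**Figure D2:**
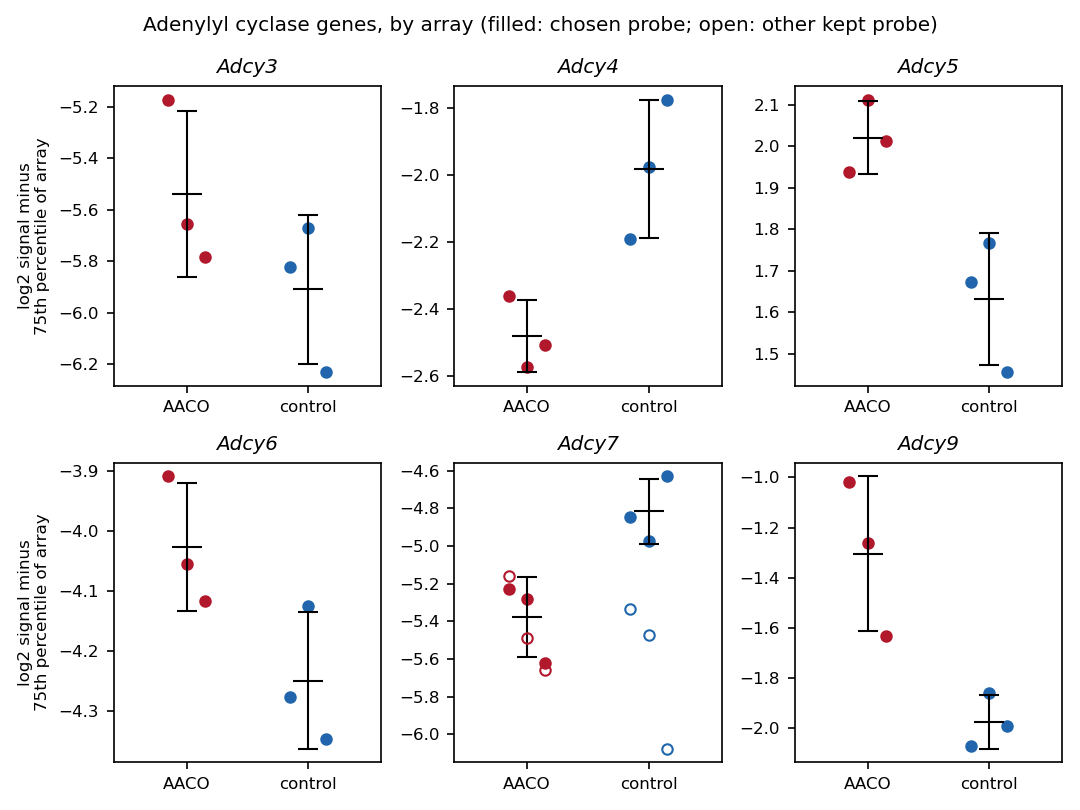
Levels of the 6 tested cyclase genes (vertical axes, log2 signal less its array's 75th percentile) on the 3 AACO arrays (red, left) and 3 control arrays (blue, right), with mean and SD as the black mark and bar. Adcy3, Adcy5, Adcy6 and Adcy9 have the higher mean with AACO (Adcy3 and Adcy6 the lower one with normexp) and Adcy4 and Adcy7 the lower, and the open points of the second Adcy7 probe do not share the order of the filled ones.

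The phosphodiesterases that break down cyclic AMP alone (Pde4, Pde7 and Pde8) gave 2 of the 3 rises, in 6 tested of 8 genes. Pde4a rose to -0.77, -0.90 and -0.86 on the AACO arrays, against -1.89, -1.68 and -1.65 on the control arrays. The arrays of a group lay close together, and the gap between the groups was several times their spread. The difference was 0.90 ± 0.11, a level 1.86-fold higher (n = 3 each, limma adjusted p = 0.00985). The probe lies at chr8:20241328-20241387 of rat build rn4, the build of the array files, and a second Pde4a probe gave 1.08 ± 0.13, with the same direction.

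Pde4d, the form that is found with the ryanodine receptor and with beta-adrenergic receptors in heart muscle, rose to -1.95, -2.14 and -2.32 with AACO, against -2.66, -2.75 and -2.79 in controls. The groups did not overlap, and the difference was 0.60 ± 0.12, a level 1.52-fold higher (limma adjusted p = 0.0324). Its second probe gave 0.71 ± 0.24. The array files place both Pde4d probes, and that of Pde4dl1, close together on an unplaced part of chromosome 18 of rn4, whereas RefSeq places Pde4d on chromosome 2 of GRCr8, so which copy they measure is uncertain. Pde4dl1 itself differed by 0.06 ± 0.25, with overlapping groups. The call for Pde4d was less stable than that for Pde4a: it was kept in 1 of the 6 fits that left out 1 array, with an adjusted p of 0.0269 to 0.109, whereas Pde4a was called in 6 of 6. Pde4b, whose loss in mice is known to disturb the control of calcium current, had levels of -3.62, -3.55 and -3.57 with AACO and -3.64, -4.63 and -4.10 in controls, a difference of 0.54 ± 0.24 (limma adjusted p = 0.185). The AACO values stood together just above the highest control. Pde7a differed by 0.22 ± 0.25 (limma adjusted p = 0.573), and its values overlapped, as did those of Pde4c and Pde7b.

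Among the enzymes that break down both cyclic AMP and cyclic GMP (Pde1, Pde2, Pde3, Pde10 and Pde11), 1 of the 5 tested of 8 differed. Pde10a, an enzyme known best from the striatum of the brain, fell to -3.08, -3.24 and -3.36 on the AACO arrays, against -2.11, -2.05 and -2.42 on the control arrays. Its groups were clearly apart, and the difference was -1.03 ± 0.14, a level 2.05-fold lower (n = 3 each, limma adjusted p = 0.0123). The probe lies at chr1:46392997-46393056 of rn4, and a dimmer Pde10a probe gave -0.41 ± 0.18 (unadjusted p = 0.0627 by limma), the same direction at a smaller size. The call was lost without AACO replicate 2, where the difference was -1.03 and the adjusted p was 0.0623.

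Pde1a, which calcium and calmodulin activate, had levels of -1.89, -2.48 and -3.04 with AACO and -3.31, -3.43 and -3.06 in controls. The AACO arrays were spread widely, from well above the controls to almost level with the highest of them, and the difference was 0.79 ± 0.29 (limma adjusted p = 0.123). Pde1a was called as higher without AACO replicate 3, at 1.08, and without scaling. Pde2a, which cyclic GMP stimulates, had levels of 2.76, 2.74 and 2.81 with AACO and 3.01, 2.84 and 2.81 in controls, a difference of -0.11 ± 0.10 (limma adjusted p = 0.466). Pde3a, which cyclic GMP inhibits and which is the target of milrinone in the heart, had levels of -2.89, -3.28 and -3.52 with AACO and -3.44, -3.82 and -3.66 in controls. Its difference of 0.41 ± 0.19 did not pass (limma adjusted p = 0.200), and the groups overlapped.

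Of the enzymes for cyclic GMP and their relatives (Pde5, Pde6 and Pde9), 3 of 7 were tested and none passed. Pde5a, the target of sildenafil, had levels of -4.80, -4.94 and -4.85 with AACO and -5.19, -5.18 and -5.07 in controls, a difference of 0.28 ± 0.09 (limma adjusted p = 0.101). With normexp background correction the same gene differed by -0.17, so its sign depends on how the dim signal is corrected. Pde9a had levels of -2.32, -2.11 and -2.26 with AACO and -3.19, -2.75 and -2.52 in controls, a difference of 0.59 ± 0.18 (limma adjusted p = 0.0869). Pde6d, which carries prenylated proteins rather than breaking down nucleotides, differed by 0.07 ± 0.11. Pde6a, Pde6b, Pde6c and Pde6h, genes of photoreceptors, were not tested.

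The remaining genes with Pde in their name, Pde12, Pde4dip and Pde4dl1, did not pass either. Pde4dip encodes myomegalin, a large protein that binds Pde4d, and its levels of 2.31, 2.30 and 2.29 with AACO lay above those of 2.03, 2.13 and 2.15 in controls, a difference of 0.20 ± 0.09 (limma adjusted p = 0.182). Pde12 removes poly(A) tails from RNA in mitochondria, and its difference of -0.32 ± 0.25 was within the spread of the controls.

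None of the 6 PKA subunits, all of which were tested, passed the test. Prkaca, the main catalytic subunit, had levels of 5.24, 4.93 and 5.09 on the AACO arrays and 4.62, 5.01 and 4.90 on the control arrays. The groups overlapped, and the difference was 0.24 ± 0.14 (n = 3 each, limma adjusted p = 0.293). A dimmer second probe of Prkaca gave 0.45 ± 0.10 (unadjusted p = 0.00438 by limma). Its adjusted p in the limma fit over all probes kept was 0.0448.

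Prkacb, the second catalytic subunit, had levels of -2.13, -3.21 and -2.97 with AACO and -3.68, -3.66 and -4.04 in controls. AACO replicate 1 stood well above the other AACO arrays, which themselves lay above each control. The difference of 1.02 ± 0.29 did not pass (limma adjusted p = 0.0701). Prkacb was called as higher with spike-in scaling, with robust eBayes and without scaling. Prkar1a, a regulatory subunit that restrains the kinase, had levels of 3.59, 3.70 and 3.82 with AACO and 4.06, 3.89 and 3.99 in controls, a difference of -0.28 ± 0.11 (limma adjusted p = 0.134). The array file places this Prkar1a probe on chromosome X of build rn4, whereas RefSeq places the gene on chromosome 10 of GRCr8, so which copy it measures is uncertain. Prkar1b differed by 0.44 ± 0.19, Prkar2a by 0.31 ± 0.20 and Prkar2b by -0.44 ± 0.24, with limma adjusted p between 0.178 and 0.331. Prkar2b was low on 1 AACO array, at -3.00, beside -2.07 and -2.29 on the other AACO arrays and -2.12, -1.96 and -1.96 in controls.

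The PKA inhibitor peptides held the largest difference of the 47 tested members. Pkib, which binds the free catalytic subunit as a pseudosubstrate, rose to -2.43, -1.76 and -2.09 on the AACO arrays, against -4.53, -4.30 and -4.98 on the control arrays. The lowest AACO array was far above the highest control array, and the gap was larger than the whole range of either group. The difference was 2.51 ± 0.24, a level 5.70-fold higher (n = 3 each, limma adjusted p = 0.00691). Pkib has a single probe on the array, at chr20:36749926-36749985 of rn4, so no second probe could check it.

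The call for Pkib was kept in 6 of 6 fits that left out 1 array, with differences of 2.32 to 2.68 and adjusted p of 0.0149 to 0.0416. Pkig, a widely expressed inhibitor, had levels of 4.01, 3.74 and 3.57 with AACO and 3.36, 3.41 and 3.26 in controls. Its groups did not overlap, but the difference of 0.43 ± 0.13 did not pass (limma adjusted p = 0.0912), and a second probe gave 0.13 ± 0.12. Pkia, the inhibitor first described from muscle, had levels of -0.04, -0.22 and -0.03 with AACO and -0.13, -0.09 and -0.54 in controls, a difference of 0.15 ± 0.15 (limma adjusted p = 0.518).

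The anchoring proteins were the largest family, with 15 of 17 tested, 2 that fell and none that rose. Akap12, a scaffold for PKA and protein kinase C also called gravin, fell to -2.39, -2.15 and -2.15 on the AACO arrays, against -1.38, -0.98 and -1.57 on the control arrays. The groups did not overlap, and the difference was -0.92 ± 0.17, a level 1.90-fold lower (n = 3 each, limma adjusted p = 0.0264). The probe lies at chr1:35067997-35068056 of rn4, and a much dimmer Akap12 probe gave -0.19 ± 0.30, and with the mean over the 2 probes the difference was -0.56 and was not called.

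Akap2, a scaffold that binds the regulatory subunits of PKA and that the present symbol table lists as Pakap, fell to -1.07, -1.16 and -1.07 with AACO, against -0.56, -0.44 and -0.70 in controls. The AACO values lay within 0.1 of each other and below each control, and the difference was -0.53 ± 0.10, a level 1.45-fold lower (limma adjusted p = 0.0292). The probe lies at chr5:75855407-75855466 of rn4, and the call was kept in 1 of the 6 fits without 1 array, with adjusted p of 0.0459 to 0.109, whereas that of Akap12 was kept in 4 of 6.

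Akap1, which holds PKA on the outer membrane of mitochondria, had levels of 3.35, 3.39 and 3.63 with AACO and 3.88, 3.65 and 3.43 in controls, a difference of -0.19 ± 0.15 (limma adjusted p = 0.420). Akap8, an anchor of the nucleus, had levels of 2.79, 2.83 and 2.49 with AACO and 2.68, 2.75 and 2.57 in controls, a difference of 0.04 ± 0.13 (limma adjusted p = 0.865). Both overlapped between the groups. Akap6, which gathers PKA and Pde4d at the nuclear envelope of heart muscle cells, had levels of 0.20, 0.08 and 0.18 with AACO and -0.25, -0.04 and -0.17 in controls. The groups were apart by little, and the difference of 0.30 ± 0.10 did not pass (limma adjusted p = 0.103). Akap6 and the next 3 anchors fall outside the naming rule and were chosen after their values were seen, for their known roles in heart muscle or for the size of the difference.

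Akap9, known as yotiao for holding PKA at the potassium channel Kcnq1, differed by 0.06 ± 0.12 on its brightest probe. A dimmer Akap9 probe gave 0.92 ± 0.21 (unadjusted p = 0.00391 by limma), with an adjusted p of 0.0421 in the limma fit over all probes kept. The 2 probes thus gave very different sizes for 1 gene. Akap5, an anchor at calcium channels and beta-adrenergic receptors, had levels of -3.54, -4.22 and -4.14 with AACO and -4.75, -4.38 and -5.49 in controls, a difference of 0.91 ± 0.32 (limma adjusted p = 0.117). Akap3, a protein of the sperm tail, had levels of -3.79, -3.65 and -3.51 with AACO and -3.31, -2.65 and -2.97 in controls, a difference of -0.67 ± 0.18 (limma adjusted p = 0.0641). Akap3 was called as lower with normexp background correction, with array weights, with a filter for all 6 arrays and without control replicate 1. The other anchors tested, Akap7, Akap8l, Akap10, Akap11, Akap13, Akap17a and Akap17b, had differences of -0.10 to 0.64, with limma adjusted p of 0.143 or more. Akap4 and Akap14 were not tested.

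**Figure D3:**
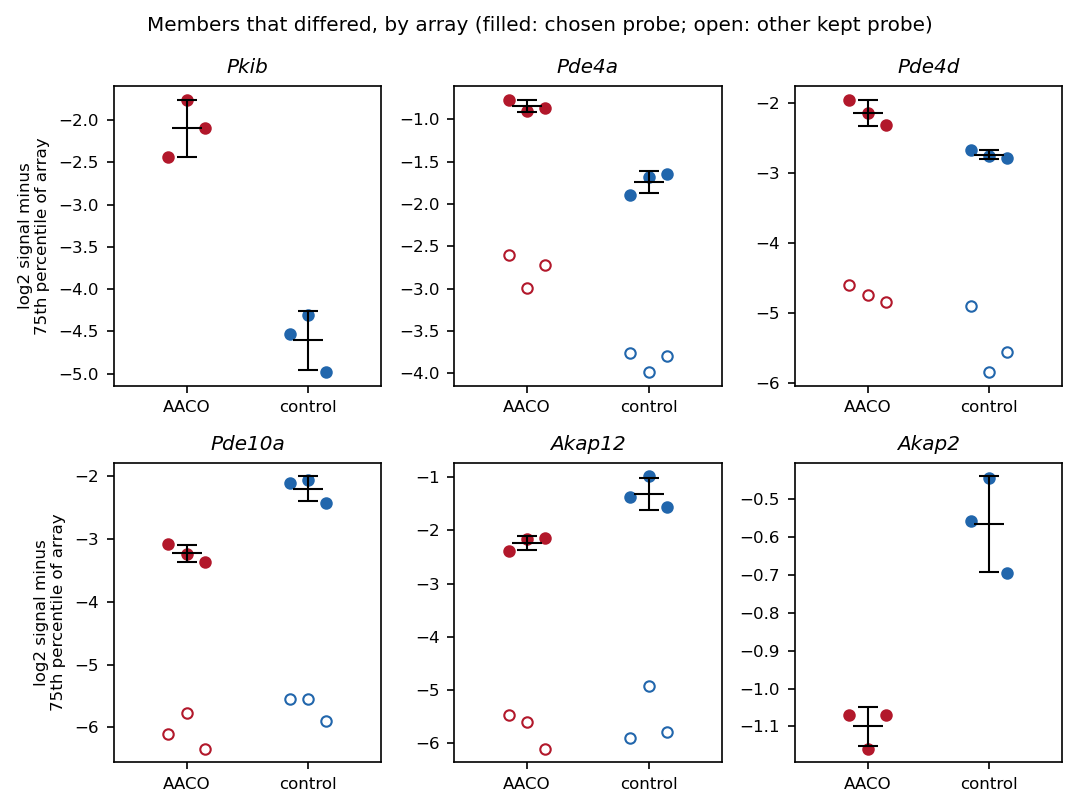
Levels of the 6 members that differed (vertical axes, log2 signal less its array's 75th percentile) on the 3 AACO arrays (red, left) and the 3 control arrays (blue, right), with mean and SD as the black mark and bar. Filled points are the probe used and open points another probe of the same gene, where 1 was kept, and in each panel the filled AACO points all lie on 1 side of the filled control points.

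Probes of 1 gene were set beside each other where more than 1 was kept. On 15 members there were 16 further probes, 13 of them with the sign of the brightest probe and 3 with the other sign (Adcy7, Akap10 and Akap11). Of the 6 members that differed, Pde4a, Pde4d, Pde10a and Akap12 had a second probe, and all 4 second probes had the same sign. Pkib and Akap2 had none.

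AACO replicate 3 had the lowest Myl7 and Sln level of the AACO arrays, at -0.73, above but near the control range of -2.0 to -1.05. On that array the levels of Pkib (-2.09), Pde4a (-0.86), Pde4d (-2.32), Pde10a (-3.36), Akap12 (-2.15) and Akap2 (-1.07) lay outside the range of the control arrays, on the same side as the other AACO arrays. These 6 genes were called on the same arrays and none overlapped between the groups, so that position follows from how they were chosen. The part of atrial tissue in their differences was not tested. With Myl7 and Sln added as a covariate in the limma fit, the differences were 2.43 for Pkib, 0.88 for Pde4a, 0.46 for Pde4d, -1.11 for Pde10a, -0.86 for Akap12 and -0.46 for Akap2. None of the 6 was then called, and neither was any of the 17536 genes, of which 2264 had an unadjusted p under 0.05.

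Cyclic AMP also acts on transcription, through the factors CREB and CREM, which bind the cAMP response element, TGACGTCA, or its shorter core, TGACG. Promoter windows of RefSeq on rat build GRCr8 (250 bases before a gene's start to 50 after it) were therefore searched on both strands for both motifs and for the E-box CACGTG. Each full element holds the core on both strands. Of the 62 members, 48 matched the table, with 65 windows. The full element lay in 1 of the 65 windows, that of Akap17a, and in 1.83% of all 33469 windows of the table and 2.89% of the windows of genes tested here. The core lay in 16 of the 65 windows (24.6%), beside 21.2% of all windows and 29.6% of the windows of genes tested here. The E-box lay in 5 windows (7.69%), beside 6.42% of all windows and 8.89% of the windows of genes tested here. The 65 windows include those of members not tested, so they are not a like set to the windows of tested genes. Counted by gene instead of by window, 36 tested members matched the table. Of these, 13 held the core, 1 the full element and 3 the E-box. A gene with more windows has more chances to hold a motif, and no share by gene was counted over all genes. The counts by gene thus cannot be set against the shares of windows above.

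The windows below show the member with the largest difference, 3 other members that differed and hold the core, and the only member with the full element. Capitals mark the motif letters. Pkib at chr20:37513082-37513381 (plus strand) holds none of the 3 motifs. The Pde4a window at chr8:27966737-27967036 (plus) holds the core at -11, counted in bases from the start, and is 1 of 4 windows of the gene. Another Pde4a window, at chr8:27999163-27999462 and not shown, holds the core at -18. The Pde4d window at chr2:42592499-42592798 (plus), 1 of 5, holds it at -231 and -194. Another Pde4d window, at chr2:42767367-42767666 and not shown, holds the core at -19. The Pde10a window at chr1:54765619-54765918 (minus), 1 of 2, holds it at -179 and -104. Akap17a at chr12:21428198-21428497 (minus), a gene whose level differed by -0.04 ± 0.10, holds the full element at -212.
Pkib: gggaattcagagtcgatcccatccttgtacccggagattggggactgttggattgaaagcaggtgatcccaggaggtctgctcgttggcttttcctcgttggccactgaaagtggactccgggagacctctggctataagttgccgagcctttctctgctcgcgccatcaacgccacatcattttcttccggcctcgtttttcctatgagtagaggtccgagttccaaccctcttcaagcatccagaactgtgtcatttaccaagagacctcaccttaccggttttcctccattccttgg
Pde4a: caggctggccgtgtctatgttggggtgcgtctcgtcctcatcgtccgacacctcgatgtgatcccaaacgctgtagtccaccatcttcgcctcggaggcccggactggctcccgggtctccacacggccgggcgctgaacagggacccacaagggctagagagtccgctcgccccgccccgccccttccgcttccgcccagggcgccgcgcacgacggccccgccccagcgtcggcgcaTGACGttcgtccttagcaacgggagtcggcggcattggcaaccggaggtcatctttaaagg
Pde4d: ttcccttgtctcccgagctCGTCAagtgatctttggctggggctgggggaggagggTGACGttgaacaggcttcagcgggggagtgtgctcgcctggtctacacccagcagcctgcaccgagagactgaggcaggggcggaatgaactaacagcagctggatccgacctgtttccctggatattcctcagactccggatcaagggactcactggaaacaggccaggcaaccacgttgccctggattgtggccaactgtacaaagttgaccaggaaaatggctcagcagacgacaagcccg
Pde10a: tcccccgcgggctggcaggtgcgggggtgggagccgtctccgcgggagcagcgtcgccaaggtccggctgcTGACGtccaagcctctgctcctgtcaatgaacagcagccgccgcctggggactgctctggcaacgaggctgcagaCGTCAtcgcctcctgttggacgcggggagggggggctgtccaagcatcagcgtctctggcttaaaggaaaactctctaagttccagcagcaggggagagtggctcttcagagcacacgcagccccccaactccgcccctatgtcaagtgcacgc
Akap17a: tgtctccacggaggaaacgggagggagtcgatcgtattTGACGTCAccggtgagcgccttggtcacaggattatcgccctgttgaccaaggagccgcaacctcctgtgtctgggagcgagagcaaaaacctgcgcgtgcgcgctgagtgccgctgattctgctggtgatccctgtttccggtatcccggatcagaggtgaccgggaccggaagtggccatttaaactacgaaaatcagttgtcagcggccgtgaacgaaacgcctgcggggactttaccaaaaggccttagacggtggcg
Of the other members that differed, Akap2 holds the core in 1 of its 2 windows, and Akap12 none in its window. The core thus lay in windows of genes that rose and of genes that fell, and a match is a description of the letters only.

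The rest of the pathway was read in 9 lists of genes that are not members, from receptors to targets. Of the 119 genes in them 95 were tested, and 7 rose and 8 fell, which is 15.8% beside 11.2% of all genes. The median difference over the 95 was 0.07. This count was less stable than that of the members: it was 0 without AACO replicate 2 (30 genes with an unadjusted p under 0.05 by limma), 1 without AACO replicate 1, 20 without AACO replicate 3, and 5, 3 and 2 without control replicates 1, 2 and 3.

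Among 12 tested receptors that stimulate cyclases, 1 rose. Crhr2, a receptor for corticotropin-releasing factor and urocortins, rose to -5.46, -5.42 and -5.57 with AACO, against -6.09, -6.55 and -6.27 in controls. It was above background on 3 AACO arrays and 1 control array, and its difference of 0.82 ± 0.14 (limma adjusted p = 0.0210) turned to -0.14 with normexp background correction. Adrb1, the main beta-adrenergic receptor of heart muscle, differed by -0.06 ± 0.11 and did not pass (limma adjusted p = 0.749). Gcgr, the glucagon receptor, differed by 1.32 ± 0.34 (limma adjusted p = 0.0566).

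Among 8 tested receptors that inhibit cyclases, 2 rose and 2 fell. Chrm2, the muscarinic receptor through which the vagus slows the heart, rose to -0.84, -1.33 and -1.62 with AACO, against -2.53, -2.41 and -2.24 in controls. The difference was 1.13 ± 0.21 (limma adjusted p = 0.0260), and a second probe gave 0.98. Adora1, a receptor for adenosine, rose by 0.64 ± 0.15 (limma adjusted p = 0.0468), but a dimmer probe of it gave -0.35. S1pr1, the sphingosine-phosphate receptor of endothelium and heart muscle, fell to 0.64, 1.27 and 1.28 with AACO, against 2.04, 2.12 and 1.83 in controls, a difference of -0.93 ± 0.20 (limma adjusted p = 0.0362). Adra2b, an adrenergic receptor, fell by 0.62 on the log2 scale (limma adjusted p = 0.0148).

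Of 14 tested G proteins, receptor kinases and arrestins, 2 rose and 1 fell. Gnas, the stimulatory G protein, rose to 5.73, 5.76 and 5.71 with AACO, against 5.28, 5.41 and 5.34 in controls. The arrays of each group agreed closely, and the difference was 0.39 ± 0.09 (limma adjusted p = 0.0413), while a much dimmer probe gave 0.11. Gnas was called in 5 of 20 alternatives and in 0 of 6 limma fits without 1 array, where its adjusted p was 0.0566 to 0.137. Gnal, its relative of olfactory neurons and striatum, rose by 0.76 ± 0.17 (limma adjusted p = 0.0423). Gnai3, an inhibitory G protein, fell to 0.72, 0.99 and 0.91 with AACO, against 1.67, 1.72 and 1.42 in controls, a difference of -0.73 ± 0.13 (limma adjusted p = 0.0222).

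Of 9 tested effectors other than PKA and cyclic AMP exporters, 1 fell. Rapgef3, also known as Epac, the exchange factor for Rap that cyclic AMP activates, fell to -2.95, -2.41 and -2.08 with AACO, against -1.52, -1.40 and -1.70 in controls. Its difference of -0.94 ± 0.23 was just past the threshold (limma adjusted p = 0.0491). Abcc4, which exports cyclic AMP, differed by 0.36 ± 0.10 and did not pass (limma adjusted p = 0.0729).

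Of 12 tested PKA substrates of muscle, 1 rose and 1 fell. Cacna1c, the pore of the L-type calcium channel, rose to 0.93, 0.91 and 0.90 with AACO, against 0.36, 0.48 and 0.25 in controls, a difference of 0.55 ± 0.10 (limma adjusted p = 0.0234). A dimmer probe of Cacna1c gave 0.08, so the probes of this gene differ in size. Lipe, the hormone-sensitive lipase of fat, fell by 0.62 on the log2 scale (limma adjusted p = 0.0228), beside a summed signal of 8 adipocyte markers of 6.31 to 9.87 with AACO and 12.6 to 13.0 in controls. Of those 8, 3 were tested, 1 fell, and 2 were above background on no array. The sum rests mainly on Fabp4 and Cfd, which differed by -0.66 and -0.97, whereas Adipoq differed by 1.18. Of these 3, Fabp4 alone was called. The part of fat cells in the Lipe value was not tested. The classic substrates Pln, Ryr2 and Tnni3 differed by -0.03 ± 0.19, 0.07 ± 0.14 and 0.09 ± 0.15, and their adjusted p lay between 0.703 and 0.928 by limma.

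Of 9 tested CREB factors and coactivators, 2 fell and none rose. Crem has a short form that cyclic AMP induces and that represses transcription through the cAMP response element. Crem fell to -0.87, -0.47 and -0.16 with AACO, against 1.14, 0.92 and 0.45 in controls. The groups did not overlap, and the difference was -1.33 ± 0.24, a level 2.52-fold lower (limma adjusted p = 0.0251). The other 4 probes of Crem gave -1.84, -1.41, -1.57 and -1.42. Crtc3, a coactivator of CREB, fell by 0.50 on the log2 scale (limma adjusted p = 0.0460), while a second probe of similar signal gave 0.17. Crtc3 was called in 5 of 20 alternatives and in 0 of 6 limma fits without 1 array, where its adjusted p was 0.0704 to 0.147. Each of the other 13 pathway genes called was called in 1 to 3 of those 6 fits.

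Of 12 tested genes known to be induced through CREB, 1 fell. Nr4a3, a nuclear receptor of the immediate early response, fell to -4.91, -4.31 and -1.52 with AACO, against 1.1, 0.28 and -0.40 in controls, a difference of -3.91 ± 0.90 (limma adjusted p = 0.0432). Its values were spread widely in both groups, and a second probe gave 1.15 with a value of 1.37 on 1 AACO array and of -6.61 to -3.95 on the other 5 arrays. Cited2, a transcriptional coregulator, differed by -0.58 ± 0.17 and did not pass (limma adjusted p = 0.0777). Fos differed by 2.54 ± 0.94 and did not pass (limma adjusted p = 0.128).

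For cyclic GMP, 1 of 8 tested cyclase and kinase genes rose. Gucy1a1, a subunit of the cyclase that nitric oxide activates, rose to -1.77, -1.71 and -2.15 with AACO, against -2.63, -2.54 and -2.80 in controls, a difference of 0.78 ± 0.15 (limma adjusted p = 0.0285). Npr1, the receptor for natriuretic peptides, differed by -0.36 ± 0.11 (limma adjusted p = 0.0813). None of the 11 protein phosphatases passed, and 3 had an unadjusted p under 0.05 by limma. Ppp2cb and Ppp2ca, catalytic subunits of a main phosphatase of heart muscle, each differed by -0.49, with limma adjusted p of 0.0542 and 0.0674.

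**Figure D4:**
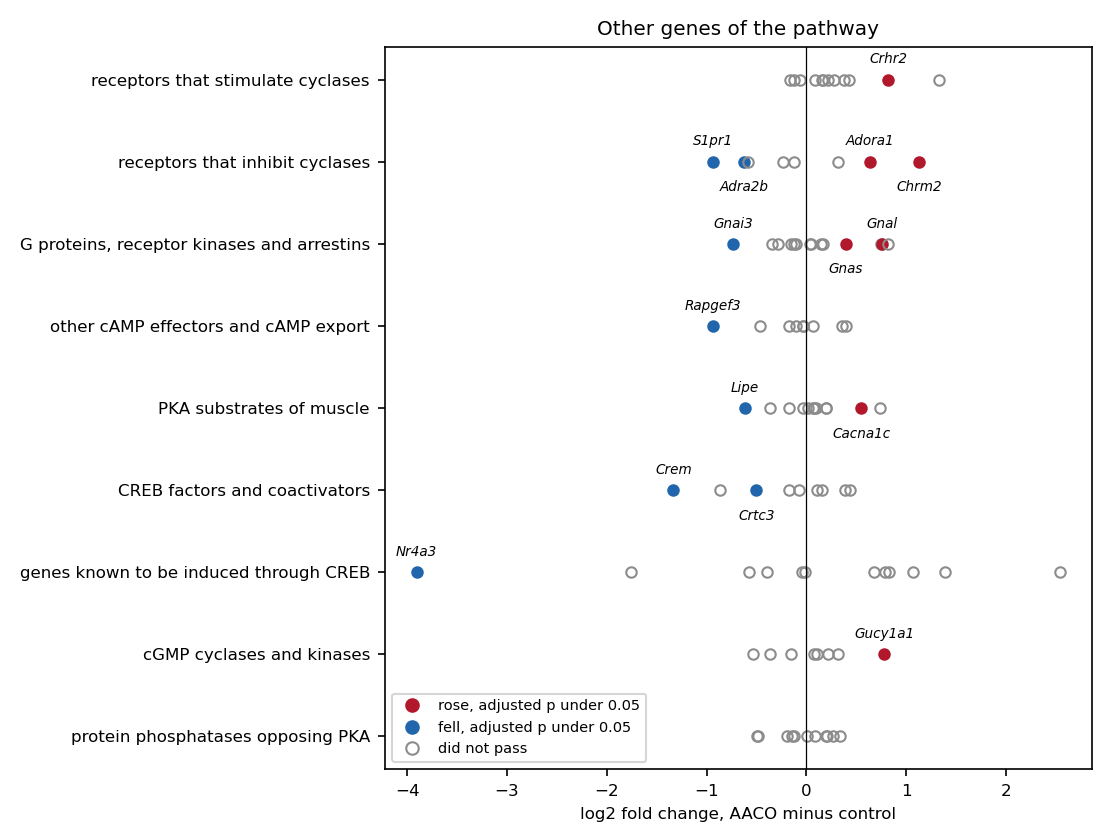
Log2 fold change (AACO minus control, horizontal axis) of the 95 tested genes of the 9 pathway lists, 1 row for each list. Red points rose and blue points fell at an adjusted p under 0.05 and are named, and open grey points did not pass. Named points lie on both sides of 0, from Nr4a3 at -3.91 to Chrm2 at 1.13.

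The calls for the 6 members were set against 20 other ways of processing the same arrays. Each of the 6 kept its direction in all 20. The groups did not overlap for any of the 6, so no fit without 1 array could turn a direction. A change of the variance model alone also leaves the difference as it was. Those settings are thus no check of direction. Pkib and Pde4a were called in 19 of the 20, Pde10a in 17, Akap12 in 15, and Pde4d and Akap2 in 12 each. Without any scaling between arrays, where the median of all genes moved to 0.52, no member was called as lower, and the difference of Akap2 was -0.05.

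**Figure D5:**
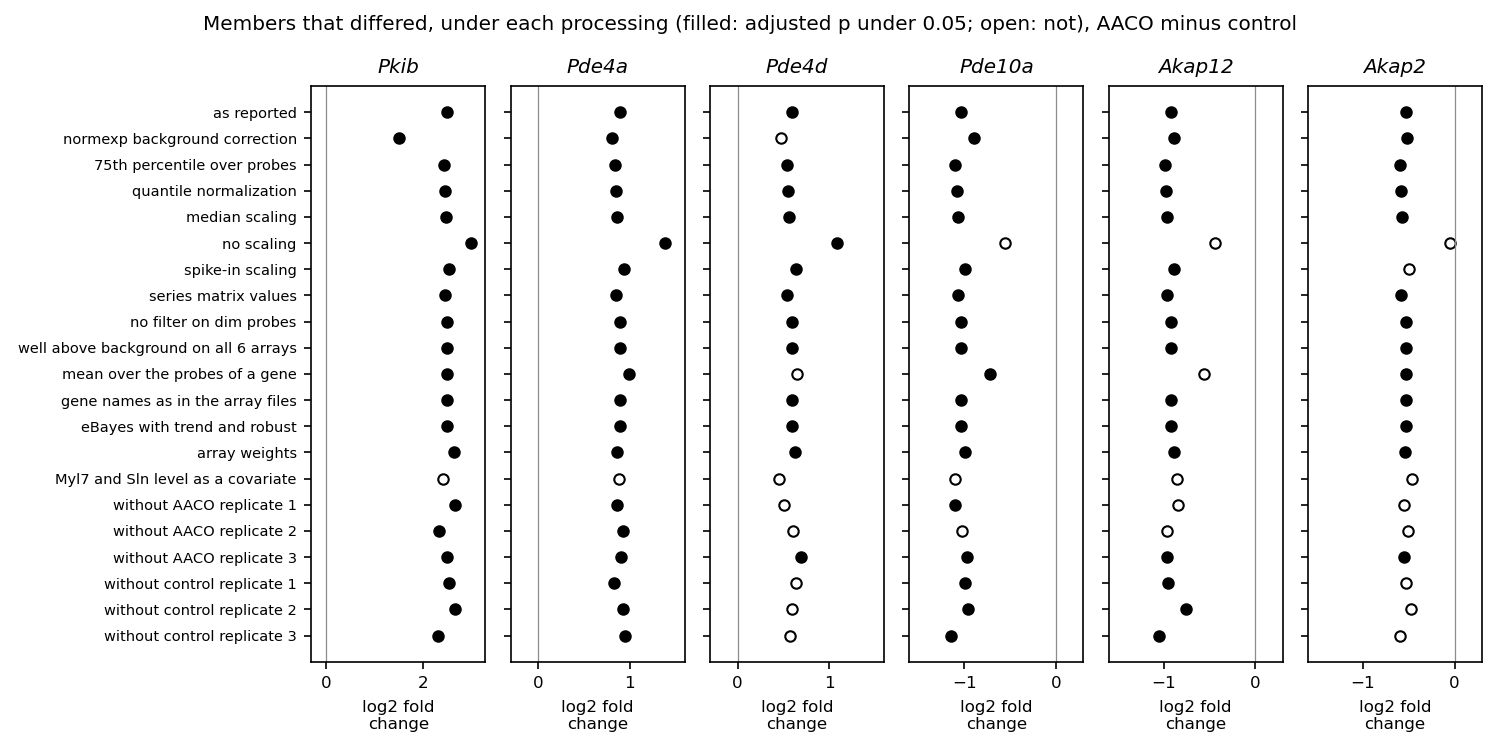
Log2 fold change (AACO minus control, horizontal axes) of the 6 members that differed, as reported (top row) and under each of 20 other settings (rows). Filled points had an adjusted p under 0.05 and open points did not, and all points of a gene lie on 1 side of 0, with Pkib between 1.51 and 2.99.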

How the data were processed

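RNA of 6 samples labelled as whole heart was read on one-colour (Cy3) Agilent arrays. Per the file headers, spots were read with Feature Extraction 10.7.1.1. The deposited intensity used here is the processed signal, which has been background-corrected but has no scaling between arrays. Values in the deposited series matrix are on a log2 scale and centred alike, with a median of 6.7708673 in each column. The authors' exact normalization is not given in the sources used here, and that table served as an alternative. Control and outlier-marked spots were dropped, spots of a probe were averaged, and each array's 75th percentile over spots was subtracted from log2 signals. Probes well above background on at least 3 of 6 arrays were kept (20112 probes of 17536 genes), and a gene was read on its brightest probe. Of 80 member probes, 68 matched the symbol table of the reference by accession. The groups were compared with limma 3.58.1 under R 4.3.3, by two-sided moderated tests (lmFit, then eBayes) whose p-values were adjusted by Benjamini-Hochberg across the genes tested, and a gene was called at an adjusted p under 0.05. This fit used the 6 arrays and no covariate. The method was tested on simulated arrays with independent values and no slide or scan-day effect, so that test does not bear on either. The members and lists were chosen with earlier results of these data known. Named were the members that differed, the 2 of each family brightest on average and the 2 with the smallest p, members above background in 1 group only or with probes that disagreed, and in each pathway list the genes that differed (at most 4) and the 2 with the smallest p. The other tested cyclases and PKA subunits and a few members with known cardiac roles, and beside the pathway rule Adrb1, Pln, Ryr2, Tnni3 and Fos, were added after their values were seen. The part of a gene that a probe lies in is not given, since no rn4 annotation was used here. Alternatives changed the background correction, the scaling, the filter, the probe rule, the variance model, array weights, a Myl7 and Sln covariate and each array left out; a 75th percentile over probes was added after seeing the data. Members without a promoter window in the table were Adcy3, Adcy6, Adcy8, Pde1b, Pde3b, Pde4c, Pde4dl1, Pde6c, Pde6d, Pde7a, Pde7b, Pde9a, Pkia and Prkar2a.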

Additional observations from a re-analysis of the deposited data

Results flagged for a closer look

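A second Pde12 probe that was too dim for the comparison had a mean log2 level of -6.11 on the AACO arrays and -6.86 on the control arrays, a difference of 0.76, with no overlap between the groups. It was well above background on 2 AACO arrays and on no control array. It was picked out as a signal in data outside the comparison, and the brighter Pde12 probe differed by -0.32, so the probes of this gene had opposite signs.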

How the results depend on the processing

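Genes that differed numbered 1958 of 17536 as reported, 5725 without scaling, 3205 with array weights and 0 with the Myl7 and Sln covariate (2264 with an unadjusted p under 0.05), and 253 to 2187 in limma fits without 1 array (398 without AACO replicate 1, 253 without AACO replicate 2, 1224 without control replicate 2 and 631 without control replicate 3). Higher and lower genes, 1110 and 848 as reported, were 799 and 1503 with normexp, 876 and 1041 with the percentile over probes, 783 and 1408 without a filter, 1136 and 505 with spike-in scaling and 5493 and 232 without scaling. Members that differed numbered 6, but 24 (none lower) without scaling, 11 with array weights and 0 with the covariate (7 with an unadjusted p under 0.05), and 2 to 8 without 1 array, with 3 without AACO replicate 1 and 2 without AACO replicate 2. Pathway genes numbered 15, but 32 without scaling, 26 with array weights and 0 with the covariate (14 with an unadjusted p under 0.05), and 0 to 20 without 1 array. The members' median of 0.20 was 0.076 with normexp, 0.14 with the percentile over probes, 0.15 with quantile normalization, 0.68 without scaling, 0.14 with the series matrix, 0.047 without a filter and 0.16 to 0.24 without 1 array; it stayed 0.12 to 0.19 above the median of all genes in each setting. Several members that were not called as reported changed sign. Pde5a was -0.17 and Pde6d -0.033 with normexp. Akap8 was -0.027 with the percentile over probes, -0.017 with quantile normalization and with the series matrix, -0.19 with the covariate, and -0.0033, -0.028 and -0.0092 without AACO replicate 1, AACO replicate 2 and control replicate 3. Akap1 was 0.29, Pde12 0.16, Pde2a 0.37 and Prkar1a 0.20 without scaling. Akap1 was 0.037 and Pde7a -0.10 with the covariate, and Pde7a was -0.0040 to 0.40 without 1 array, lowest without AACO replicate 2. Of the other 23 tested members, 11 changed sign in 25 fits, and of the 26 pathway genes given by the naming rule or beside it, 6 did in 15 fits, with none called after the change. With normexp, Adcy3 was -0.28, Adcy6 -0.017, Pde4c -0.28, Pde4dl1 -0.31, Prkar2a -0.19, Akap10 0.028 and Akap17a 0.092. Without scaling, Prkar2b was 0.041, Pde7b 0.23, Akap10 0.43, Akap13 0.38, Akap17a 0.44, Adrb1 0.42, Pln 0.45 and Npr1 0.12. With the covariate, Akap9 was -0.16 and Pde4c -0.32. Akap9 and Pde4dl1 also turned with the percentile over probes, and Akap9, Pde4c, Pde4dl1, Akap17a, Adrb1, Pln, Ryr2 and Tnni3 in 1 or more fits without 1 array. Among cyclases, Adcy4 and Adcy7 were called as lower with normexp, quantile normalization, median scaling, array weights, the series matrix and the percentile over probes, Adcy9 as higher with median scaling, spike-in scaling, array weights and robust eBayes, and Adcy5 as higher with normexp, array weights and robust eBayes, among others. The causes were not tested; fits without 1 array rest on fewer samples. Precision is limited by 3 arrays a group and, for dim probes, by signal over background. No paired analysis was possible because the title numbers are not shared between the groups and other numbers follow accession order only.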
